A study of Macrobrachium rosenbergii with 20 samples.

Results

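The comparison described here sets the ovary of adult female giant freshwater prawns (Macrobrachium rosenbergii) against the testis of adult males. It uses 10 of the 20 libraries of the study, chosen by the tissue label alone: 5 ovary libraries from females and 5 testis libraries from males, all of the strain labelled CMr1 and of adult stage. The other 10 libraries are 5 of female and 5 of male hepatopancreas (the digestive gland). They are used to say where else a transcript was found, and in an alternative that puts all 4 groups in 1 fit. No genotype, treatment or exact age is given for any group, and the labels do not say whether the replicates are separate animals or pools, so p-values measure the spread between these samples, which may be technical. Weight gain is labelled per sample and was 4.86 ± 2.0 for ovary and 2.34 ± 0.569 for testis samples (SD, n = 5 each, unit not stated). That difference of 2.52 had a two-sided exact permutation p of 0.0317, so weight gain differed along with the gonad.

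The ovary of a decapod crustacean grows oocytes, which fill with yolk and store RNA and protein for the embryo. The testis makes spermatozoa, which in decapods lack a beating tail and have unusually packed chromatin. In males the androgenic gland, attached to the reproductive tract, secretes an insulin-like hormone that directs male differentiation, and female giant freshwater prawns carry the W and Z sex chromosomes. The table gives transcripts by identifier and length only, with no gene name, and 0 of its 30260 identifiers matched the RefSeq gene table. Markers of oocytes, sperm or follicle cells could therefore not be looked up, and the tissue labels were not checked against markers. Each identifier is marked HQ or LQ and Female or Male, and ends in a number after f and a length in bases. In clustered full-length long reads, identifiers of this form give the number of supporting reads after f. The files do not say how these were made. In whole-tissue RNA, fewer cells of a type and less RNA per cell cannot be told apart.

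The values are estimated counts, with library totals from 8670640 to 13232366 in ovary and from 12822717 to 17102848 in testis. Of the 30260 transcripts, 20089 had no count in any gonad library and 3126 had counts but missed the minimum of 10 counts in at least 5 of the 10 libraries. The other 7045 were tested. Among these, 134 reached 10 counts in ovary libraries only and 165 in testis libraries only, so they entered the test through that gonad. A further 4746 had 10 or more counts in every one of the 10 libraries.

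Without a covariate, ovary and testis differed in most of the transcripts that could be tested. EdgeR's quasi-likelihood test called 4009 of 7045 transcripts (56.9%) at a Benjamini-Hochberg adjusted p under 0.05. Of these, 1904 (27.0% of those tested) were higher in ovary and 2105 (29.9%) were higher in testis. The CPM (counts scaled to a common library size after TMM correction) of the 5 ovaries and the 5 testes did not overlap for 3094 transcripts (43.9%). Tested against a bound of 2-fold in place of no change, 2537 transcripts (36.0%) passed, 1078 of them higher in ovary and 1459 higher in testis. With the weight gain label as a covariate, 2619 of the 7045 transcripts were called, which is no longer most of them. Of these, 2584 were among the 4009. In that fit 1515 transcripts passed the 2-fold bound.

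Differences toward testis were larger than those toward ovary. The median log2 size of change was 1.78 among transcripts called higher in ovary and 2.67 among those called higher in testis, and 2.42 and 3.09 when libraries were scaled by their totals alone. Changes between 2-fold and 8-fold made up 66.7% of the ovary-higher calls and 50% of the testis-higher calls. Changes of 32-fold or more were found for 174 of the transcripts higher in ovary (9.14%) and 421 of those higher in testis (20%), and for 249 (7.65% of calls) and 233 (23.8%) on library totals. Transcripts without a count in the other gonad were 51 of the ovary-higher and 49 of the testis-higher calls. With each of these put at the least fold that 3 counts in the whole other gonad allow, the medians stayed at 1.78 and 2.67, and 173 and 421 transcripts reached 32-fold. At least 10 counts in every library were held by 1488 ovary-higher (78.2%) and 1275 testis-higher transcripts (60.6%), against 67.4% of all tested. Among those the gap was smaller, with median log2 sizes of 1.56 for ovary-higher and 2.03 for testis-higher transcripts. Of them, 7 of the ovary-higher and 47 of the testis-higher transcripts differed by 32-fold or more.

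**Figure D1:**
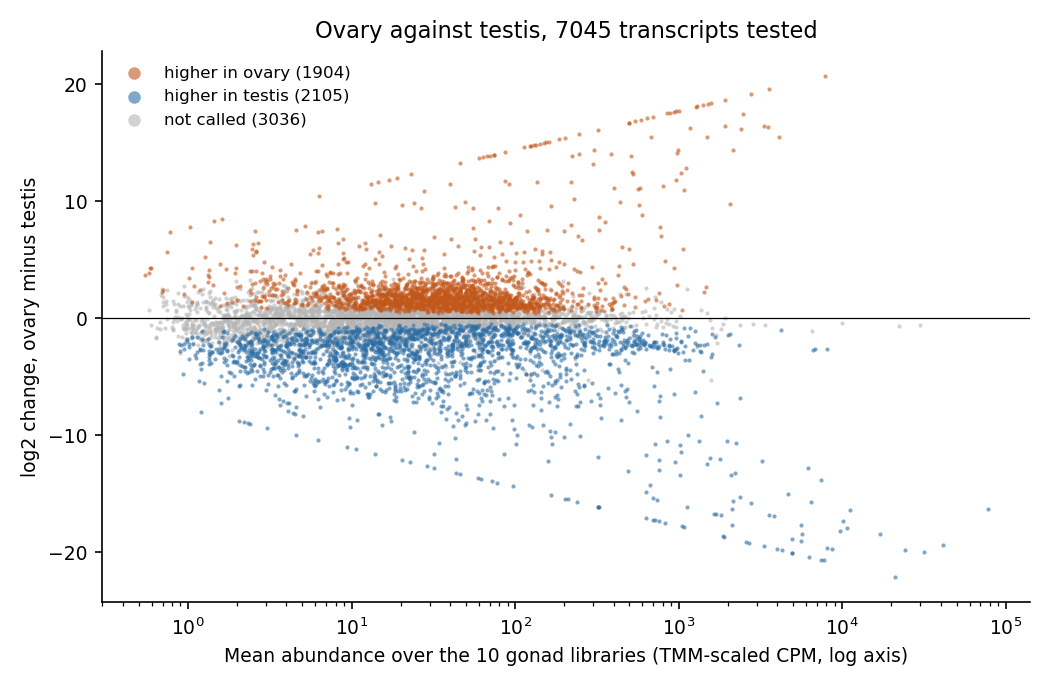
Log2 change (ovary minus testis) of each of the 7045 tested transcripts against its mean TMM-scaled CPM over the 10 gonad libraries (log axis). The 1904 transcripts called higher in ovary lie above 0 and the 2105 called higher in testis below it, with the 3036 not called between. The straight outer rows of points are transcripts without a count in 1 gonad, whose fitted change depends on the prior count and is no measured fold.

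How the calls divide between the gonads depended on how the libraries were scaled. TMM factors, by which a library total is multiplied before levels are compared, ran from 1.517 to 1.676 in ovary and from 0.3702 to 0.9847 in testis. With TMM, 47.5% of calls were higher in ovary. DESeq2 size factors gave 46.0%, upper quartile factors 41.9% and library totals alone 76.9%. On library totals, 3253 calls were toward ovary and 979 toward testis. The median log2 change of all transcripts then lay 1.27 above that with TMM. All 4 scalings called the same 1664 transcripts (23.6% of those tested) as higher in ovary and the same 979 (13.9%) as higher in testis. Another 67 were called in opposite directions by different scalings. Past the 2-fold bound, 883 ovary-higher and 653 testis-higher transcripts held in all 4 scalings, and none was called in opposite directions.

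The most abundant transcripts were called most often, but abundance here is the mean over both gonads. A transcript high in 1 gonad alone can reach the top bin through that gonad. The rate and balance of calls there are therefore not independent of the difference itself. Of the 139 transcripts with a mean of 1000 CPM or more over the 10 libraries, 85.6% were called, 27 of them higher in ovary and 92 higher in testis. Between 10 and 100 CPM the balance lay the other way, with 1319 ovary-higher and 954 testis-higher calls among 3794 transcripts. Between 1 and 10 CPM, 241 of 1960 transcripts were called higher in ovary and 614 higher in testis. On library totals the highest bin kept its balance (32 ovary-higher, 81 testis-higher). The bin from 10 to 100 CPM moved further toward ovary, to 2130 and 423. That from 1 to 10 CPM turned, to 535 and 248. The median standard error of the log2 change was 0.68 between 1 and 10 CPM, 0.375 between 10 and 100 CPM, and 0.967 above 1000 CPM.

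**Figure D2:**
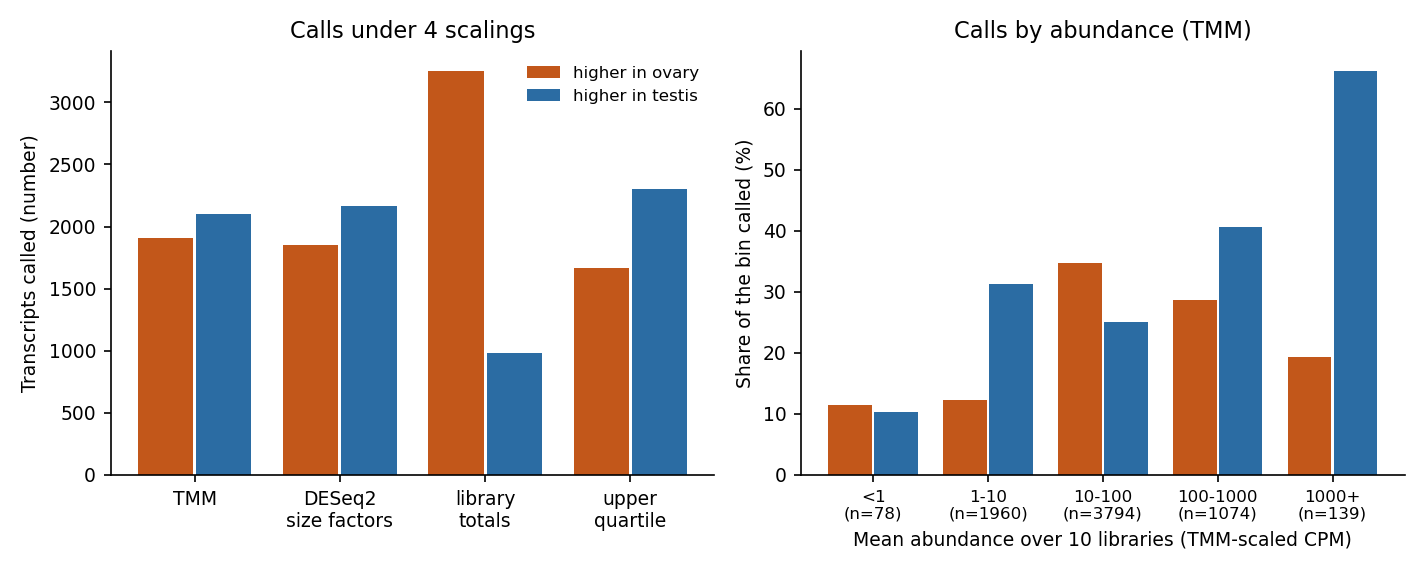
Left, number of transcripts called higher in ovary and higher in testis under 4 scalings, from 1904 and 2105 with TMM to 3253 and 979 on library totals. Right, share of transcripts called in each direction (%) in bins of mean TMM-scaled CPM over the 10 libraries, with 19.4% higher in ovary and 66.2% higher in testis in the highest bin.

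Ovary and testis libraries differed in how evenly their counts were spread over transcripts. The 10 most counted transcripts of a library took 19.8%, 17.0%, 19.7%, 14.7% and 16.3% of counts in ovaries 1 to 5, and 41.8%, 31.3%, 32.8%, 31.7% and 26.5% in testes 1 to 5. The groups did not overlap, with means of 17.5% ± 2.24 in ovary and 32.8% ± 5.58 in testis (SD, n = 5 each). The number of transcripts that together held 50% of a library's counts was 149, 177, 160, 192 and 185 in ovaries 1 to 5, and 17, 29, 30, 37 and 48 in testes 1 to 5. Again no testis reached an ovary: the means were 173 ± 17.8 in ovary and 32.2 ± 11.4 in testis. Both differences had a two-sided exact permutation p of 0.00794, the smallest that 5 against 5 libraries allow, and an adjusted p of 0.0139 over 7 measures. Testis counts were thus concentrated on few transcripts, and this held with counts divided by transcript length.

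The concentration did not come with fewer transcripts detected. After each library was thinned to the smallest total of 8670640 counts, 7838 ± 177 transcripts had a count in ovary and 8054 ± 303 in testis (SD, n = 5 each; exact permutation p 0.206). The ovaries ranged from 7560 to 7971 transcripts and the testes from 7680 in testis 1 to 8455 in testis 5, so the groups overlapped. Library totals themselves averaged 10712000 ± 2112200 counts in ovary and 14928000 ± 1538600 in testis (exact permutation p 0.0159, adjusted 0.0222).

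**Figure D3:**
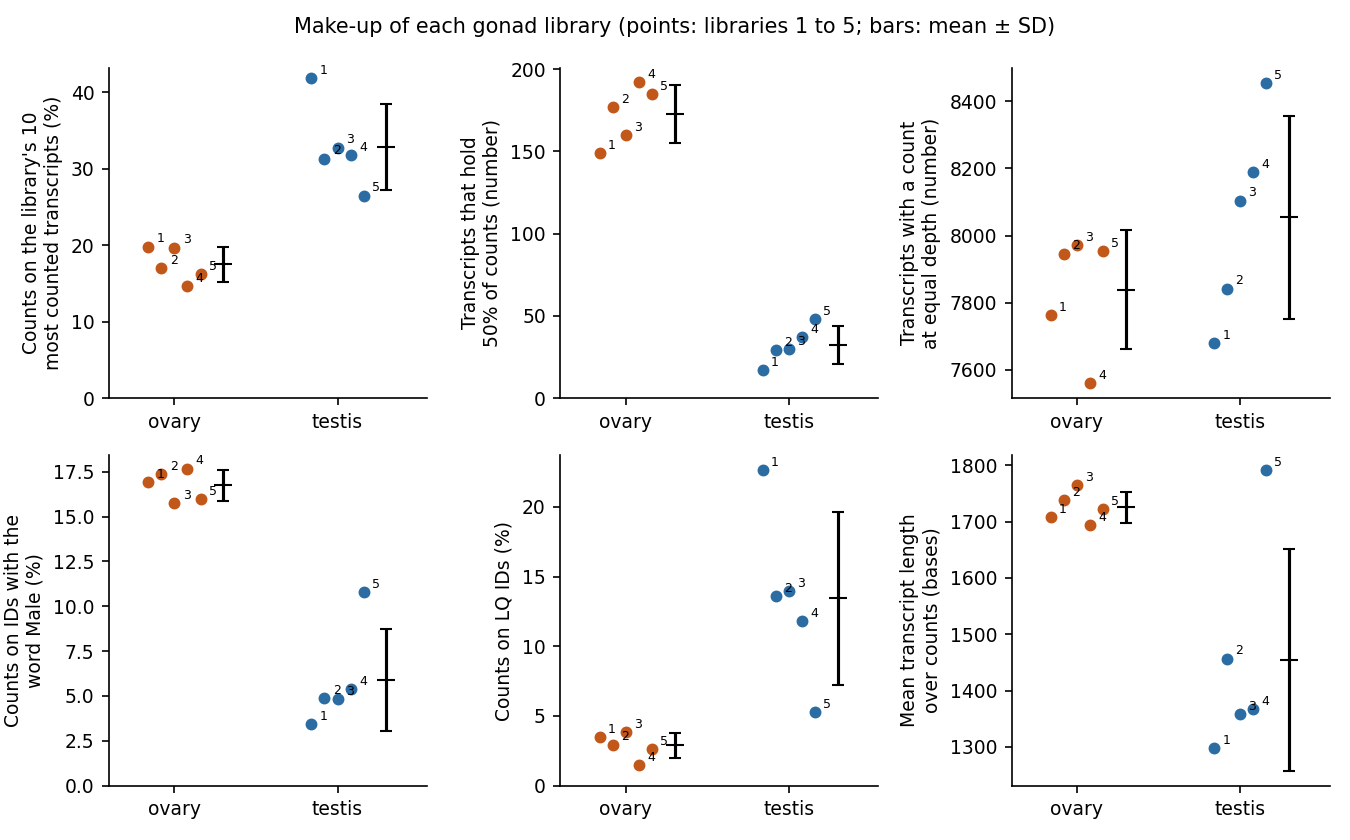
Make-up of each gonad library, 1 panel per measure, with points for libraries 1 to 5 (numbered) and bars for the mean ± SD of each gonad; the axes of transcripts detected and of mean length do not start at 0. Ovaries and testes do not overlap in the share of the 10 most counted transcripts, the number of transcripts that hold 50% of counts, or the shares on Male and LQ identifiers. Testis 5 lies nearest to the ovaries in these 4 panels and above them in mean length, at 1791 bases.

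Most of the leading transcripts of a gonad differed between ovary and testis, but a few were abundant in both. The lists of 10 most counted transcripts of the 5 ovaries held 15 different transcripts between them, 5 of which stood in the list of every ovary. Of the 15, 10 were called higher in ovary and 5 were not called. The lists of testis held 22 different transcripts, of which 17 were called higher in testis and 2 were not called. The other 3 missed the minimum count and were called once 10 counts in 4 libraries were enough. A list chosen by counts in 1 gonad favours calls toward that gonad, so these numbers are not independent of the difference itself. Over all tested transcripts, 27.0% were called higher in ovary and 29.9% higher in testis. Only 2 transcripts stood in lists of both gonads. One of them, 1323 bases long, took 3.83% ± 1.41 of ovary counts and 2.39% ± 0.983 of testis counts (SD, n = 5 each), as well as 4.54% of female and 1.67% of male hepatopancreas counts. With TMM its log2 change was -0.58 (edgeR adjusted p 0.368), toward testis although its mean share of counts was higher in ovary. It was the most counted transcript in 4 of the 5 ovaries. The other, 1042 bases long, took 2.76% ± 1.08 of ovary and 1.78% ± 0.707 of testis counts. Its log2 change with TMM was likewise toward testis, at -0.64 (edgeR adjusted p 0.280).

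Among the 10 transcripts with the highest mean share in ovary, a choice that favours ovary-higher calls, 7 were called higher in ovary. Of these, 3 had no count in any testis and the other 4 had 1 to 10 counts over all testes, and none took as much as 0.01% of any testis library. The highest of the 7, of 1257 bases, took 2.17%, 2.71%, 1.77%, 3.47% and 2.64% of counts in ovaries 1 to 5. The ninth in rank, of 1863 bases, took between 0.962% and 1.19% in ovaries 1 to 4 but 0.049% in ovary 5. In hepatopancreas each of the 7 had a mean share of at most 1.31e-05% in both sexes.

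Among the 10 with the highest mean share in testis, a choice that favours testis-higher calls, 8 were called higher in testis. Of them, 1 led every testis library. That transcript, of 681 bases, took 9.8%, 7.16%, 10%, 11.7% and 6.01% of counts in testes 1 to 5, and it had 190 counts over all ovaries. Of the remaining 7, testis 5 held 6 at less than 0.01% of its counts, while testes 1 to 4 held each of those at 1.29% to 7.34%. The remaining transcript, of 789 bases, was low in testis 4 instead, at 0.00179%, against 1.24% to 1.91% in the other testes. The 10 transcripts together took 39.2%, 29.2%, 32% and 30.3% of counts in testes 1 to 4 and 13.8% in testis 5. Ranks here rest on shares of counts, which favour long transcripts, yet 7 of these 8 were only 681 to 789 bases long.

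Transcripts shown in most detail have at least 10 counts in every library and groups that do not overlap in TMM-scaled CPM. Among these they have the largest change in each direction, so that the fold rests on reads in both gonads. The identifiers have no gene name, and only 2 are given per direction.

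Transcript transcript_HQ_Female_transcript8789/f2p0/1607 had 1863, 1258, 1289, 1630 and 1746 CPM in ovaries 1 to 5, and 11.16, 6.583, 10.95, 14.14 and 18.17 CPM in testes 1 to 5. Every ovary lay far above every testis. Its means were 1557 ± 272 CPM in ovary and 12.2 ± 4.29 CPM in testis (SD, n = 5 each). The fitted log2 change was 6.99 ± 0.38 (SE; edgeR adjusted p 1.8e-06), which is 127-fold higher in ovary (95% interval 70.7 to 229, spread between libraries included). On library totals alone, which allow the hepatopancreas to stand beside the gonads, it averaged 2503 ± 402 CPM in ovary, 8.67 ± 5.92 in testis, 6.11 ± 2.44 in female and 4.09 ± 1.33 in male hepatopancreas.

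Transcript transcript_HQ_Female_transcript484/f8p0/3327 had 1001, 982.8, 888.1, 1162 and 882.2 CPM in ovaries 1 to 5, and 19.76, 10.53, 17.17, 16.53 and 15.5 CPM in testes 1 to 5. The ovary values lay within a narrow band. The means were 983 ± 113 CPM in ovary and 15.9 ± 3.39 CPM in testis, with a log2 change of 5.95 ± 0.27 (SE; edgeR adjusted p 1.42e-06) or 61.8-fold (40.6 to 94.1). It was also abundant in the digestive gland. On library totals it averaged 1584 ± 192 CPM in ovary, 10.4 ± 4.05 in testis, 504 ± 182 in female and 172 ± 223 in male hepatopancreas, where male 5 held 570.7 CPM and the other males 66.21 to 77.27.

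Transcript transcript_HQ_Female_transcript2259/f281p0/2306 had 1.893, 2.478, 6.112, 1.625 and 1.469 CPM in ovaries 1 to 5, and 6064, 9463, 3442, 3453 and 8.669 CPM in testes 1 to 5. Testis 5 lay close to the ovaries and far below the other testes. The means were 2.72 ± 1.94 CPM in ovary and 4486 ± 3516 CPM in testis. Its log2 change was -10.68 ± 1.58 (SE, edgeR adjusted p 0.000331), or 1640-fold higher in testis with a wide interval (144 to 18800). Without testis 5 the change was -10.89 (edgeR adjusted p 7.15e-06). On library totals alone the gonads overlapped, with 9.683 CPM in ovary 3 and 8.537 CPM in testis 5. Hepatopancreas averaged 38.16 ± 58.36 CPM in females and 18.22 ± 24.75 CPM in males on library totals, and female 3 held 142.4 CPM.

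Transcript transcript_HQ_Female_transcript1950/f2p0/2467 had 5.479, 2.134, 1.54, 2.303 and 1.836 CPM in ovaries 1 to 5, and 3842, 619.6, 4688, 2171 and 8332 CPM in testes 1 to 5. Here testis 5 was the highest of the testes. The means were 2.66 ± 1.60 CPM in ovary and 3931 ± 2916 CPM in testis, with a log2 change of -10.52 ± 0.93 (SE; edgeR adjusted p 1.9e-05) or 1470-fold higher in testis (351 to 6180). It had no count in any of the 10 hepatopancreas libraries. Its estimates are not all whole numbers, as arises where reads are divided among like transcripts, so its level is uncertain.

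**Figure D4:**
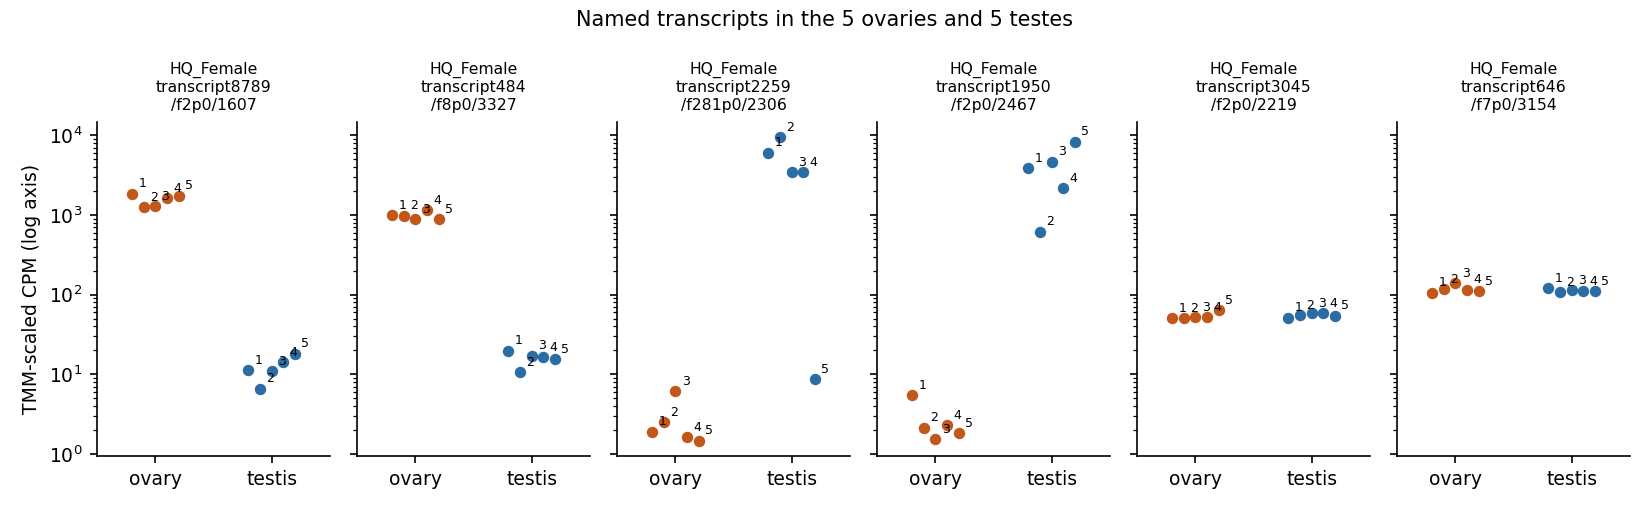
TMM-scaled CPM (log axis) of the 6 named transcripts in ovaries 1 to 5 and testes 1 to 5, 1 panel per transcript and 1 numbered point per library. The first 2 panels are higher in ovary and the next 2 higher in testis, with testis 5 at 8.669 CPM in the third panel; in the last 2 the gonads overlap under TMM scaling, but not on library totals.

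A missed threshold did not show that a transcript was alike in both gonads. Of the 7045 transcripts, 3036 (43.1%) were not called. For 613 transcripts (8.7%) the 95% interval of the log2 change lay wholly within 2-fold in both directions, and 32 of these were called. For 2455 of the transcripts not called, the interval reached past 2-fold. The transcript held most closely near 0, transcript_HQ_Female_transcript3045/f2p0/2219, had 50.86, 50.52, 52.03, 51.81 and 63.46 CPM in ovaries 1 to 5 and 51.42, 55.16, 58.15, 58.31 and 54.33 CPM in testes 1 to 5, with a log2 change of -0.05 (95% interval -0.38 to 0.29). The next, transcript_HQ_Female_transcript646/f7p0/3154, averaged 118 ± 12.1 CPM in ovary and 113 ± 5.04 CPM in testis (SD, n = 5 each), with a log2 change of 0.07 (-0.26 to 0.40). Likeness in this sense depended on the scaling. DESeq2 size factors and upper quartile factors left both uncalled and gave 599 and 648 transcripts within 2-fold. On library totals these 2 transcripts averaged 86.7 and 190 CPM in ovary and 36.6 and 73.5 CPM in testis, were called (edgeR adjusted p 0.00529 and 0.00206), and 178 transcripts lay within 2-fold.

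Called transcripts took most of each gonad's counts. Those higher in ovary, which were chosen by these same libraries, took 44.5% to 59.8% of counts in the 5 ovaries and 1.77% to 6.15% in the 5 testes. Those higher in testis took 12.0% to 12.9% in the ovaries and 81.5%, 73.7%, 71.1%, 68.8% and 62.1% in testes 1 to 5. Transcripts not called held 28.0% to 42.7% in the ovaries and 9.16% to 25.6% in the testes. Transcripts below the minimum count held at most 0.322% of an ovary library but 6.07% to 10.1% of a testis library.

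The minimum count of 5 libraries left out 200 transcripts with 10 or more counts in 4 of the 5 testes and in no ovary, and for 128 of them testis 5 was the library that fell short. They took 7.5%, 9.95%, 9.59% and 7.87% of counts in testes 1 to 4 and 0.153% in testis 5. In ovary the same pattern was found for 27 transcripts, which took at most 0.0297% of an ovary library. With 4 libraries as the minimum, 7442 transcripts were tested and 4243 called, 1948 toward ovary and 2295 toward testis.

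**Figure D5:**
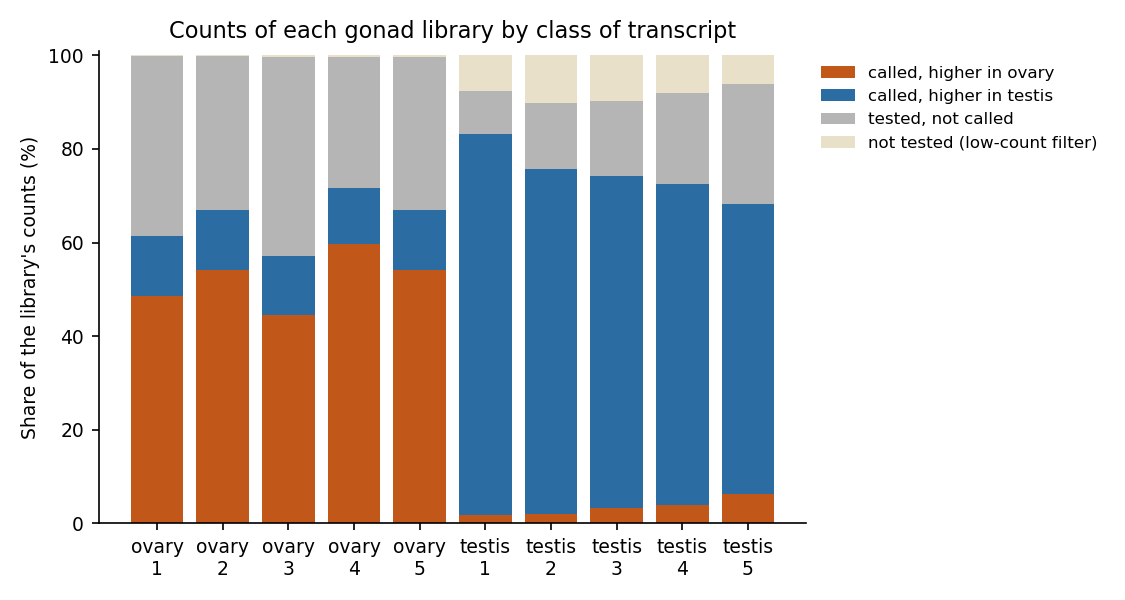
Share of each gonad library's counts (%) on transcripts called higher in ovary, called higher in testis, tested but not called, and not tested because of the minimum count. The 5 ovaries hold 44.5% to 59.8% on ovary-higher transcripts, and the testes 81.5% (testis 1) to 62.1% (testis 5) on testis-higher transcripts.

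Testes varied among themselves more than ovaries when all libraries were in, and the gap in the coefficient of variation was small without testis 5. The common biological coefficient of variation, fitted by edgeR in each gonad alone, was 0.631 in ovary and 0.758 in testis, and 0.628 in testis without testis 5. Leaving out single ovaries gave 0.574 to 0.650. The median over transcripts was 0.476 in ovary and 0.584 in testis, and 0.489 without testis 5. Spearman correlations across the 7045 transcripts, which share each library's scaling, ran from 0.876 to 0.944 between ovaries, from 0.838 to 0.932 between testes 1 to 4, and from 0.610 to 0.760 between testis 5 and these. Ovaries correlated with testis 5 at 0.565 to 0.600 and with testes 1 to 4 at 0.293 to 0.524.

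In TMM-scaled CPM, testis 5 was the lowest testis for 1124 of the 2105 testis-higher transcripts (53.4%) and the highest for 395 (18.8%). It lay more than 8-fold below the median of the other testes for 240 and more than 8-fold above it for 78. For the 1904 ovary-higher transcripts testis 5 was the highest testis in 1071 (56.2%). These ranks depend on the TMM factors, 0.9847 for testis 5 and 0.3702 to 0.7503 for testes 1 to 4. They were not repeated on library totals. Among ovaries, ovary 3 was the lowest for 873 of the ovary-higher transcripts and ovary 4 the highest for 918, but in no ovary did more than 10 of these transcripts lie 8-fold below the median of the other ovaries, or more than 7 lie 8-fold above it. Without testis 5, 4318 transcripts were called, 2261 higher in ovary and 2057 higher in testis, which turned the balance to 52.4% ovary-higher from 47.5%. Of the 4009 calls, 3833 held without it, none of them in the other direction. The 485 transcripts called without testis 5 alone were 374 ovary-higher and 111 testis-higher ones, and the 176 lost were 17 and 159.

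Identifiers carrying the word Male were more heavily counted in ovary. They took 16.9%, 17.4%, 15.7%, 17.7% and 16% of counts in ovaries 1 to 5, and 3.45%, 4.88%, 4.81%, 5.40% and 10.8% in testes 1 to 5, with no overlap (exact permutation p 0.00794, adjusted 0.0139). A few abundant transcripts weigh in these shares. Of the 15 transcripts in the ovaries' lists of 10 most counted, 7 bear that word, against 1 of the 22 in the testis lists. Only 176 of the tested transcripts bear it, of which 67 (38.1%) were called higher in ovary and 51 (29.0%) higher in testis. Among the 6869 with the word Female these shares were 26.7% and 29.9%. LQ identifiers took 2.89% ± 0.917 of ovary counts and 13.4% ± 6.22 of testis counts (SD, n = 5 each; exact permutation p 0.00794, adjusted 0.0139), with the lowest testis, testis 5, at 5.25% and the highest ovary at 3.86%. Of 61 LQ transcripts tested, 1 was called higher in ovary (1.64%) and 23 higher in testis (37.7%), against 27.2% and 29.8% of the HQ transcripts tested.

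Transcripts higher in testis were somewhat longer than those higher in ovary, although testis counts fell on shorter ones. Median lengths were 1539 bases for ovary-higher and 1691 bases for testis-higher transcripts, against 1623 bases for all tested. Of the 1100 transcripts of 2500 bases or more, 20.4% were called higher in ovary and 37.5% higher in testis, while of the 1850 from 1000 to under 1500 bases 31.5% and 25.6% were. On library totals the order in the longest class turned, to 41.7% and 16.3%, while the median lengths were 1614 and 1671 bases. The mean length over counts was 1725 ± 27.6 bases in ovary and 1454 ± 196 bases in testis (SD, n = 5 each), with testis 5 alone at 1791 bases and the other testes at 1298 to 1457. This difference of 271 bases had an exact permutation p of 0.0476 (adjusted 0.0556), and without testis 5 it was 355 bases (adjusted 0.0111).

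Calls higher in testis were a larger share of transcripts with estimates that are not whole numbers than of those with whole estimates. Of the 3849 tested transcripts whose estimates were whole in all 10 gonad libraries, to within 1e-06, 35.3% were called higher in ovary and 26.2% higher in testis. Of the 3196 others, 17.1% were called higher in ovary and 34.4% higher in testis. On library totals the shares were 56.5% and 10.7% for whole estimates and 33.7% and 17.8% for the others. Fitted alone, the transcripts with whole estimates gave 1203 ovary-higher and 1222 testis-higher calls. Why the balance differs was not tested.

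Most tested transcripts, whether or not they were called, were also found in the digestive gland. Presence meant 1 CPM or more (on library totals) in at least 4 of 5 libraries. Both hepatopancreas groups held 1407 of the ovary-higher transcripts (73.9%) and 1402 of the testis-higher transcripts (66.6%), against 67.7% of all tested. Neither held 361 of the ovary-higher (19.0%) and 515 of the testis-higher transcripts (24.5%), against 23.6% of all tested. Only female hepatopancreas held 106 ovary-higher (5.57%) and 72 testis-higher transcripts (3.42%), against 5% of all tested. Only male hepatopancreas held 30 (1.58%) and 116 (5.51%), against 3.69% of all tested. The 10 hepatopancreas libraries had no count at all of 63 ovary-higher (3.31%) and 73 testis-higher ones (3.47%), against 2.58% of all tested.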

How the data were processed

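The deposited values are estimated counts per transcript and library, not normalized, with a transcript length in bases. Per the submitters' processing notes, Bowtie 0.12.2 and DESeq 1.10.1 were among the tools; what each was used for, the counter and the reference are not given in the sources used. Of the gonad values above 0, 58.8% are whole to within 1e-06.

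Estimated counts were rounded. The 5 ovary and 5 testis libraries were compared, unpaired, in R 4.3.3 by the quasi-likelihood test of edgeR 4.0.16 with TMM factors on transcripts with 10 counts in at least 5 libraries. The 2-fold bound used glmTreat. A standard error is the log2 change over the square root of F, and 95% intervals use it. Measures per library were compared by two-sided exact permutation tests (252 splits), adjusted over 7 measures. DESeq2 1.42.0, other scalings, filters and covariates, the replicate block and leaving out each library were alternatives. The minimum of 4 libraries was chosen after seeing the data. On simulated counts with 200 changed transcripts, the fit recovered 4.5% of 2-fold, 49.3% of 4-fold and 65.2% of 8-fold changes. It made 82 calls there, 3 of them false.

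Named transcripts have 10 counts in every gonad library. They are the 2 of largest change per direction among called ones without overlap in TMM-scaled CPM. The others are the 2 whose 95% interval reached least far from 0. The comparison, its lists and rules were chosen with earlier results of these data known. Gene lists that need names were not tested. The bounds against 3 counts cover counting error only; depth ran from 8670640 to 17102848 counts.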

Additional observations from a re-analysis of the deposited data

Results flagged for a closer look

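Of 34 sets of 5 libraries examined (each measure, share and named transcript in each gonad), 4 held a library whose gap to its nearest neighbour passed Dixon's 95% critical value of 0.71 of the range; chance flags about 1 in 20. Testis 5 held 10.8% of its counts on identifiers with the word Male, against 5.40% in the next testis. Ovary 1 held 5.479 CPM of transcript_HQ_Female_transcript1950/f2p0/2467, against 2.303 CPM in the next ovary. Ovary 3 held 6.112 CPM of transcript_HQ_Female_transcript2259/f281p0/2306, against 2.478 CPM in the next. Ovary 5 held 63.46 CPM of transcript_HQ_Female_transcript3045/f2p0/2219, against 52.03 CPM in the next. Without any 1 of the 10 libraries, the first 2 of these transcripts stayed called by edgeR, at log2 changes (ovary minus testis) between -11.22 and -9.95.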

How the results depend on the processing

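Counts of calls stayed within 1.5 times of the reported ones under DESeq2 (4358 called), its size factors, upper quartile factors, no filter (4427), 50 counts in 5 libraries (3399), 4 libraries as the minimum, all 4 groups in 1 fit (4117), and without any 1 library (3644 to 4318). Same-numbered ovary and testis samples come from different sexes. Their deviations from the gonad mean correlated at -0.027 to 0.102, which cannot show whether same numbers shared a batch. With the replicate block 3592 were called, 3483 of them among the 4009. Library totals gave 3253 ovary-higher and 979 testis-higher calls and 178 transcripts within 2-fold. Weight gain as a covariate gave 2619 calls, 1278 testis-higher, 1515 beyond and 251 within 2-fold. Whole estimates alone, with fewer transcripts tested, gave 2425 calls, 1203 ovary-higher and 1222 testis-higher, and 1453 beyond 2-fold. The 4 transcripts named as higher kept direction and call under every alternative that held them. Of the 2 near 0, transcript_HQ_Female_transcript3045/f2p0/2219 turned to 1.24 (library totals), 0.045 (no filter), 0.034 (all 4 groups) and -0.113 to 0.042 without any 1 library (above 0 without testis 5), and transcript_HQ_Female_transcript646/f7p0/3154 to -0.13 (upper quartile), -0.072 (50 counts) and -0.21 (whole estimates). The cause was not tested.

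The difference in mean length was 351 bases with counts divided by length (adjusted p 0.0111) and 232 to 355 bases without any 1 library. That in library totals ran from -4847100 to -3673300 and in weight gain from 1.86 to 3.20 without any 1 library. Library totals no longer passed without testis 1, 2 or 3, nor weight gain without ovary 5, testis 1 or testis 4. Estimates split between like transcripts limit single levels. The median standard error was wider at 1 to 10 CPM (0.68) than at 10 to 100 CPM (0.375). It was widest at 1000 CPM or more (0.967).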
